A study of Mus musculus with 12 samples.

Results

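The astrocyte marker genes described here are Gfap, Slc1a2, Slc1a3, Glul, Aqp4, Gja1, Aldh1l1, Aldoc and S100b, 9 of the 27095 genes whose reads were counted in this series. They were chosen by symbol, as commonly used markers of astrocytes, with earlier results of these data known. All 9 were found by gene ID in both deposited tables. The series profiled histone H3 acetylated at lysine 14 (H3K14ac) by ChIP-seq, the sequencing of DNA precipitated with chromatin, and the cells were neural stem and progenitor cells of the mouse. The wild-type (WT) cells were taken from the cortex and the ganglionic eminences of foetuses at E14.5 and grown in culture. Differentiating cells had been dissociated from neurospheres and plated on laminin and fed a cortical neuron medium, and proliferating cells were neurospheres, floating clusters of dividing cells. There were 12 libraries. The labels give E14.5 and 10000000 cells per sample for all 12, the Hbo1 null ones included. H3K14ac ChIP from WT cells had 3 libraries per stage. Hbo1 null cells, in which the acetyltransferase gene Kat7 (also called Hbo1) is deleted, gave 1 H3K14ac ChIP library per stage, and the labels used here do not say how the deletion was made. WT input, which is chromatin without immunoprecipitation, and a control ChIP with non-specific IgG also gave 1 library per stage. The antibody field of the labels names the same H3K14ac antibody (Abcam ab52946) for all 12 libraries, so input and IgG were identified by title.

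Astrocytes are the glial cells that support neurons. They clear glutamate from synapses, convert it to glutamine, buffer water and ions, and are joined to each other by gap junctions. In the developing forebrain the progenitors make neurons first and astrocytes later, and radial glia, the progenitors of the embryonic cortex, already carry some genes of this set, among them Slc1a3. H3K14ac is a mark of chromatin that is found at the starts of many active genes, and HBO1 is one of the enzymes that make it. For each gene the reads had been counted over the whole gene (gene body) and in a window of 1000 bases from the transcription start (TSS window), so the mark at the start of a gene can be set beside its whole length.

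The promoters of 4 members are shown: Gfap and Gja1, whose TSS windows had the largest stage differences in either direction, and Slc1a3 and Glul, which were called over input. Slc1a2, also called over input, is not shown because the RefSeq promoter entry lies away from the start of that gene. They are the 250 bases that end just before the start of Gfap (chr11:102897201-102897450, minus strand), Slc1a3 (chr15:8710808-8711057, minus strand), Glul (chr1:153899679-153899928, plus strand) and Gja1 (chr10:56377050-56377299, plus strand). The sequences are from RefSeq for GRCm38.p6 and read 5′ to 3′ on the strand of the gene, with every CpG in capitals. The counted window begins where each sequence ends.
Gfap: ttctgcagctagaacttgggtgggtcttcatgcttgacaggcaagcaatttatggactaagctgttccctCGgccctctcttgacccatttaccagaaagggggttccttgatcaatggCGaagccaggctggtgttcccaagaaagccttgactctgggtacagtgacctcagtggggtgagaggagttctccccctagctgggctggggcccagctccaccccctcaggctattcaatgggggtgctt
Slc1a3: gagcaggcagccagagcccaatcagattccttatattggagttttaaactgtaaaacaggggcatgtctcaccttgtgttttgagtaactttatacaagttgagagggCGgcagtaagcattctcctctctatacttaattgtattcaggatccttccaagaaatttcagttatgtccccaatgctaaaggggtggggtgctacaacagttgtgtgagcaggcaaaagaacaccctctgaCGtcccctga
Glul: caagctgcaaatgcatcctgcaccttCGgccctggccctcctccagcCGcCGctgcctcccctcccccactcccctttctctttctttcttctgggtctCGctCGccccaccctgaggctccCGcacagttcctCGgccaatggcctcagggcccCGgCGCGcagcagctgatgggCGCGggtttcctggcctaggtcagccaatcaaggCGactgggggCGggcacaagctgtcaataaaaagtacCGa
Gja1: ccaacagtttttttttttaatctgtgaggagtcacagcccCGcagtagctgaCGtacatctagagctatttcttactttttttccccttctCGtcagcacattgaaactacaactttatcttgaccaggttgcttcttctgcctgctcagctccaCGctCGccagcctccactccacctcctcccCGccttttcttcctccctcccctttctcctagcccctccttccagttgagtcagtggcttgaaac
Gfap and Slc1a3 each held 2 CpG in these 250 bases, Gja1 held 6 and Glul 15. Over the promoters of 27025 genes of the same length the median was 6, with 29.6% holding 2 or fewer and 27.5% holding 15 or more.

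The WT ChIP libraries held 12549913 to 17074249 gene body counts in differentiating cells and 3992697 to 7611239 in proliferating cells. The inputs held 12689734 (differentiating) and 11871306 (proliferating) and the IgG libraries 2771713 (differentiating) and 2526252 (proliferating). The null libraries held 320601 (differentiating) and 64071 (proliferating). A TSS window of a typical gene therefore held few reads, with medians of 14 to 19 counts in differentiating and 5 to 11 in proliferating WT libraries. The share of all gene body counts that lay in TSS windows was 3.24% to 3.68% in differentiating and 4.56% to 4.90% in proliferating WT libraries, against 3.23% and 3.36% in the inputs. The deleted gene Kat7 held 11 gene body counts in the differentiating null library (34.3 CPM, 95% exact Poisson interval 17.1 to 61.4) and 4 in the proliferating one (62.4 CPM, 17 to 160), against 26.9 to 37.9 CPM in the WT libraries. These reads are precipitated DNA and do not check which part of the gene was deleted.

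Of the astrocyte marker genes, only Gfap had a TSS window that passed the test between the stages with the scaling used, and it rose in differentiating cells. Slc1a2 and Slc1a3, the glutamate transporters of astrocytes, and Glul, the glutamine synthetase, were called higher in H3K14ac ChIP than in input at their starts. However, all 3 calls were lost without the single proliferating input library, a fit that compares ChIP with input in differentiating cells only. None of the 3 passed against IgG. The windows of Aqp4, Gja1, Aldh1l1, Aldoc and S100b did not pass against input or between the stages. None of the 9 gene bodies passed a comparison with the settings used. CPM below are counts scaled to 1e6 gene body counts of the library unless another scale is named. Every TSS window has the same length, but these levels include background, which differed between genes. Input ran from 0.709 CPM (Slc1a2) to 1.97 CPM (Gja1) in differentiating and from 0.842 CPM (Slc1a2 and Glul) to 2.27 CPM (Aldh1l1) in proliferating cells. Each library pools many cells, so fewer cells with the mark at a gene and less of it per cell cannot be told apart.

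**Figure D1:**
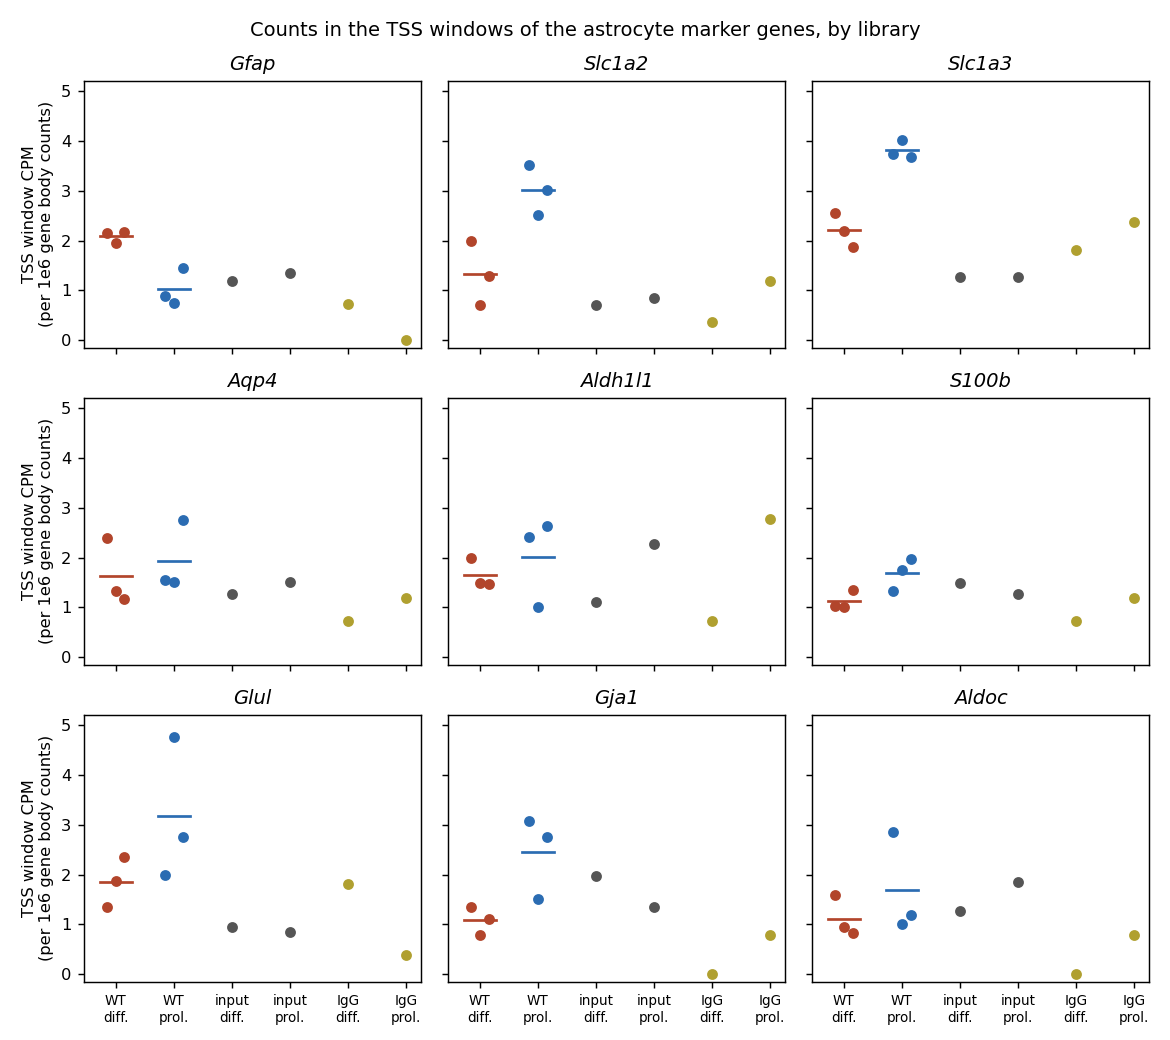
TSS window counts of the 9 astrocyte marker genes, in CPM per 1e6 gene body counts, for each library of WT H3K14ac ChIP (differentiating, red, and proliferating, blue, 3 each with the mean as a bar), input and IgG (1 per stage). Gfap is the 1 member with all differentiating values above all proliferating ones, and Slc1a2, Slc1a3 and Gja1 have all differentiating values below.

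Gfap encodes the intermediate filament protein of astrocytes (gene ID 14580, chromosome 11, 102887336 to 102897200, GRCm38). Its TSS window held 27, 25 and 37 counts in differentiating WT libraries, against 4, 3 and 11 in proliferating ones. As CPM these were 2.15, 1.96 and 2.17 in differentiating cells, against 0.881, 0.751 and 1.45 in proliferating cells, so the groups did not overlap. Input held 1.18 CPM in differentiating and 1.35 CPM in proliferating cells, which places the differentiating ChIP libraries above both inputs and 2 of the 3 proliferating libraries below both. On the scale of the stage test, which scales TSS counts between ChIP libraries by the TMM method of edgeR, Gfap held 66.5, 71.3 and 76.0 CPM in differentiating and 21.4, 18.2 and 34.3 CPM in proliferating cells.

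The Gfap window rose by a log2 fold change of 1.41 in differentiating over proliferating cells (SE 0.35, edgeR quasi-likelihood adjusted p = 0.00580, n = 3 each). It ranked 226 of the 19477 windows tested. Of these windows 2.04% were higher, 4.42% lower and 6.45% called in either direction, so 1 of 9 members called is set against that background, and 6.2% of windows as deep as the members were called. The Gfap call remained in each of the 6 fits that left out 1 library (adjusted p 0.00674 to 0.0484). The number of windows called over all genes was less steady: 319 without proliferating replicate 3, 709 without proliferating replicate 2, 516 without differentiating replicate 2 and 441 without differentiating replicate 3, against 1257 with all 6. The Gfap window held a mean of 6 counts in proliferating libraries and 29.7 in differentiating ones. The former is under the minimum that the mean over all libraries fitted had to reach. The window may thus have been tested partly because differentiating libraries held more. In a fit with no filter on the mean count the Gfap call remained, at a log2 fold change of 1.31 (edgeR adjusted p = 0.0173).

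The Gfap call depended on the scaling between the stages. With gene body totals as library sizes the median of all windows moved to −0.47, against 0.03 with TMM, and Gfap then had a log2 fold change of 0.91 and an adjusted p of 0.0580. DESeq2 gave a log2 fold change of 1.44 (SE 0.46). Its filter on low counts left this window, like 16238 of the 19477, without an adjusted p, and with adjustment over all windows the DESeq2 adjusted p was 0.120. The labels do not tie replicate numbers to cultures or animals, so these p-values measure how far libraries varied, part of which may be technical.

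Where in the Gfap gene the reads lay needs no scaling between libraries. The TSS window is 10.1% of the length of the gene and held 16.2%, 17.5% and 19.4% of the gene body counts in differentiating libraries, against 6.90%, 6.52% and 13.8% in proliferating ones. The inputs, at 11.5% (differentiating) and 11.1% (proliferating), lay near the share of length. The mean share was 17.7% ± 1.61 in differentiating and 9.06% ± 4.07 in proliferating cells (SD, n = 3 each), a difference of 8.62 points. An exact permutation test (two-sided) gave p = 0.1, which is the lowest value 3 libraries against 3 can reach. Over the 17169 genes compared in this way, 1.82% had shares in differentiating cells entirely above those in proliferating cells, and Gfap was the 1 of 9 members in that group. Over the whole Gfap gene the stages overlapped, at 13.3, 11.2 and 11.2 CPM in differentiating and 12.8, 11.5 and 10.5 CPM in proliferating cells.

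**Figure D2:**
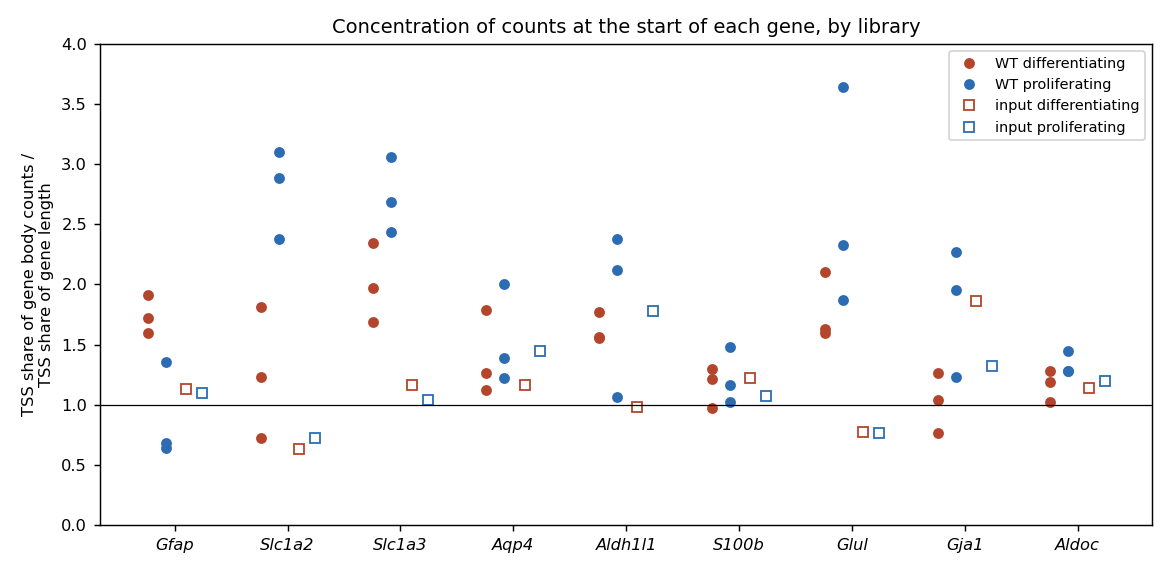
For each astrocyte marker gene and library, the TSS window's share of the gene body counts divided by the share of the gene's length that the window makes up (1 is an even spread), in differentiating and proliferating WT ChIP (filled circles) and in input (open squares). Gfap lies above 1 in all 3 differentiating libraries and in 1 of 3 proliferating ones, whereas Slc1a3, Glul, Aqp4, Aldh1l1 and Aldoc lie above 1 in all 6. Of these genes, Gfap, Slc1a3, Aqp4 and Aldoc also lie above 1 in the inputs of both stages, Aldh1l1 in the proliferating input only and Glul in neither.

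The glutamate transporter Slc1a3, also known as GLAST (gene ID 20512, chromosome 15, 8634124 to 8710807), had more TSS counts than any other member. It held 32, 28 and 32 counts in differentiating and 17, 16 and 28 in proliferating libraries, or 2.55, 2.19 and 1.87 CPM in differentiating and 3.74, 4.01 and 3.68 CPM in proliferating cells. Input held 1.26 CPM at each stage, so all 6 ChIP libraries lay above it. ChIP exceeded input by a log2 ratio of 1.18 in the fit over both stages (SE 0.39, edgeR adjusted p = 0.0300, 6 ChIP and 2 input libraries). This call is marginal: with TMM scaling the log2 ratio was 0.89 (adjusted p = 0.0642), with DESeq2 size factors 0.90 (adjusted p = 0.0615), and it also missed the threshold without proliferating replicate 1 (adjusted p = 0.050), proliferating replicate 3 (0.0651) or differentiating replicate 1 (0.0687).

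Slc1a2, or GLT-1, is the main glutamate transporter of mature astrocytes (gene ID 20511, chromosome 2, 102658239 to 102790784). Its window held 25, 9 and 22 counts in differentiating and 16, 10 and 23 in proliferating libraries, which is 1.99, 0.704 and 1.29 CPM in differentiating and 3.52, 2.50 and 3.02 CPM in proliferating cells. Against input at 0.709 CPM (differentiating) and 0.842 CPM (proliferating), differentiating replicate 2 was level and the other 5 libraries were higher. The log2 ratio of ChIP to input was 1.41 (SE 0.38, edgeR adjusted p = 0.00647). The deposited length of Slc1a2 differs by 444 bases from the RefSeq gene, and a RefSeq promoter entry for it lies 48199 bases inside the gene, so which start was counted is not given in the sources used here.

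Glul makes glutamine from the glutamate that the transporters take up (gene ID 14645, chromosome 1, 153899929 to 153909723). It held 17, 24 and 40 TSS counts in differentiating and 9, 19 and 21 in proliferating libraries, or 1.35, 1.88 and 2.34 CPM in differentiating and 1.98, 4.76 and 2.76 CPM in proliferating cells. All 6 libraries exceeded the input of their stage, at 0.946 CPM in differentiating and 0.842 CPM in proliferating cells, and the 2 stages overlapped. The log2 ratio of ChIP to input was 1.40 (SE 0.40, edgeR adjusted p = 0.00890). The first 1000 bases of Glul also hold the microRNA gene Mir8114, whose reads cannot be told apart from those of Glul.

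The glutamate genes were thus the 3 of 9 members called higher than input, where 11.6% of all 21557 windows tested were higher, 0.881% lower and 12.5% called in all. Among windows as deep as the members 16.9% were called. All 3 calls were lost without the proliferating input library. That fit leaves 1 input and sets ChIP against input in differentiating cells only. Its log2 ratios were 0.89 for Slc1a2, 0.79 for Slc1a3 and 0.99 for Glul. Without the differentiating input, which leaves the comparison to proliferating cells, they were larger, at 1.83 for Slc1a2, 1.57 for Slc1a3 and 1.85 for Glul. Without proliferating replicate 3 or differentiating replicate 1 the number of windows called over all genes was 1653 or 1773, against 2697 with all libraries.

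Set against the input of its own stage, Slc1a3 and Glul lay above it in all 6 libraries and Slc1a2 in 5 of 6, with no test per stage. Slc1a2 had a fold over input of 1.68 in differentiating and 3.49 in proliferating cells (mean log2 0.75 ± 0.73 and 1.80 ± 0.23, SD, n = 3 each). Slc1a3 had a fold of 1.71 in differentiating and 2.99 in proliferating cells (0.77 ± 0.22 and 1.58 ± 0.07). Glul had 1.88 in differentiating and 3.47 in proliferating cells (0.91 ± 0.39 and 1.79 ± 0.62). The difference between the stages did not pass for any of them in the interaction test (log2 −0.95 with SE 0.77 for Slc1a2, −0.79 with SE 0.69 for Slc1a3 and −0.85 with SE 0.75 for Glul, edgeR adjusted p = 0.693, 0.715 and 0.720). The median of all windows in that test was −0.37.

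Between the stages alone, with TMM scaling, none of the 3 windows passed. The log2 fold change, differentiating over proliferating, was −0.69 for Slc1a2 (SE 0.30, edgeR adjusted p = 0.142), −0.29 for Slc1a3 (SE 0.28, adjusted p = 0.556) and −0.17 for Glul (SE 0.29, adjusted p = 0.758). With gene body totals as library sizes Slc1a2 was −1.19 (adjusted p = 0.00248) and Slc1a3 −0.79 (adjusted p = 0.0425), both then called lower. On that scale Slc1a2, Slc1a3 and Gja1 had TSS levels in differentiating cells entirely below those in proliferating cells, as 33.7% of all windows did. Slc1a2 and Slc1a3 also had lower shares of their own gene body counts at the start, 0.95% ± 0.414 against 2.11% ± 0.281 and 2.61% ± 0.428 against 3.56% ± 0.407 (differentiating against proliferating, mean ± SD of 3 libraries, exact permutation p = 0.1 for each, again the lowest possible), a pattern that 35.3% of the genes compared shared.

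**Figure D3:**
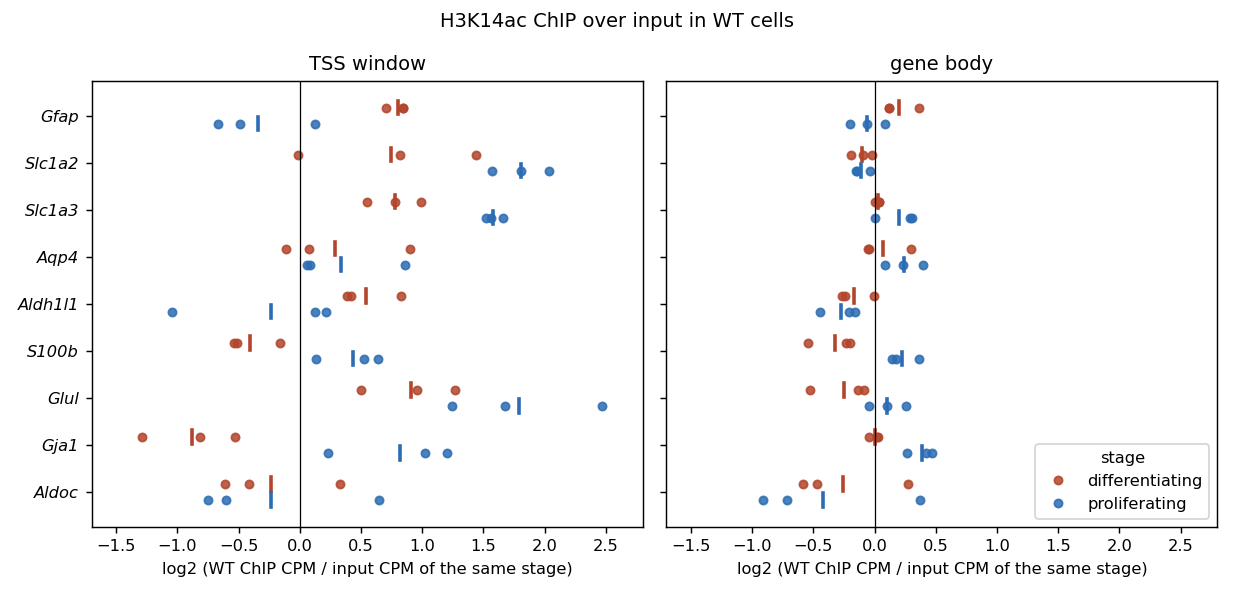
Log2 ratio of WT ChIP CPM to the input CPM of the same stage, with 0.5 added to each count, in the TSS window (left) and over the gene body (right) for each member and library, with the mean of 3 as a bar. At the TSS, Slc1a3 and Glul lie above 0 in all 6 libraries, Gfap in all 3 differentiating ones, and Gja1 below 0 in all 3 differentiating and above 0 in all 3 proliferating ones, while gene bodies lie between −0.91 and 0.47.

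Gja1 encodes connexin 43, the main gap junction protein of astrocytes and radial glia (gene ID 14609, chromosome 10, 56377300 to 56390419). Its TSS window held 1.35, 0.782 and 1.11 CPM in differentiating and 3.08, 1.5 and 2.76 CPM in proliferating cells, without overlap. Input ran the other way, at 1.97 CPM in differentiating and 1.35 CPM in proliferating cells, so all 3 differentiating ChIP libraries lay below their input and all 3 proliferating ones above theirs. The mean log2 ratio to input was −0.88 ± 0.39 in differentiating and 0.82 ± 0.52 in proliferating cells (SD, n = 3 each). In the interaction test Gja1 had the largest difference of the members, at log2 −1.76 (SE 0.61), with an edgeR adjusted p = 0.252. Its change between the stages was −0.71 (SE 0.33, adjusted p = 0.164) with TMM and −1.21 (adjusted p = 0.00338) with gene body totals. The inputs behind the ratio hold 25 (differentiating) and 16 (proliferating) counts. Without the differentiating input, which leaves the comparison with input to proliferating cells, the log2 ratio was 0.90. Over both stages, with both inputs, it was −0.05 (SE 0.33, edgeR adjusted p = 0.947).

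For Gfap the interaction test gave a log2 difference of 1.10 (SE 0.69, adjusted p = 0.579), the mean log2 ratio to input being 0.80 ± 0.08 in differentiating and −0.34 ± 0.41 in proliferating cells (SD, n = 3 each). None of the 9 members and 0.0278% of all windows passed this test, which compares 3 ChIP libraries and 1 input per stage. Of the members, 1 had an unadjusted p under 0.05, as did 2247 of the 21557 windows. With IgG in place of input the differences turned round, to −4.65 for Gfap, 4.48 for Gja1 and 0.49 for Slc1a2, with adjusted p of 0.820, 0.821 and 0.978. The IgG windows behind these values held 2 (differentiating) and 0 (proliferating) counts for Gfap and 0 and 2 for Gja1.

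Aqp4, the water channel of astrocyte end feet (gene ID 11829, chromosome 18, 15389394 to 15410982), held 2.39, 1.33 and 1.17 TSS CPM in differentiating and 1.54, 1.5 and 2.76 CPM in proliferating cells, beside input at 1.26 CPM (differentiating) and 1.52 CPM (proliferating). The stages overlapped, and 1 library of each stood apart from the other 2. The stage change was 0.10 (SE 0.32, edgeR adjusted p = 0.879) and ChIP over input was 0.39 (SE 0.35, adjusted p = 0.508). The deposited length of Aqp4 is 7298 bases from that of the RefSeq gene, and that of Aldoc 2146 bases, so the windows counted for these genes may begin elsewhere than the RefSeq start.

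The metabolic enzymes and S100b were close to input. Aldh1l1, a folate enzyme used to mark astrocytes (gene ID 107747, chromosome 6, 90550768 to 90599171), held 1.99, 1.49 and 1.46 CPM in differentiating and 2.42, 1.00 and 2.63 CPM in proliferating cells, beside input at 1.10 CPM (differentiating) and 2.27 CPM (proliferating). Aldoc, the brain form of the glycolytic enzyme aldolase (gene ID 11676, chromosome 11, 78323073 to 78327781), held 1.59, 0.939 and 0.820 CPM in differentiating and 2.86, 1.00 and 1.18 CPM in proliferating cells, beside input at 1.26 CPM (differentiating) and 1.85 CPM (proliferating). S100b, a calcium-binding protein (gene ID 20203, chromosome 10, 76253836 to 76261319), held 1.04, 1.02 and 1.35 CPM in differentiating and 1.32, 1.75 and 1.97 CPM in proliferating cells, beside input at 1.5 CPM (differentiating) and 1.26 CPM (proliferating). Differentiating libraries of S100b all lay below their input and proliferating ones all above, while Aldoc had 1 library above input at each stage. The stages overlapped for Aldh1l1 and Aldoc and, by a narrow margin, for S100b. Log2 ratios of ChIP to input were 0.21 for Aldh1l1 (edgeR adjusted p = 0.752), −0.20 for Aldoc (0.754) and −0.01 for S100b (0.991), with SE of 0.33 to 0.35. Stage changes were 0.10 (SE 0.31), −0.07 (SE 0.38) and −0.08 (SE 0.36), with adjusted p of 0.880, 0.936 and 0.920.

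**Figure D4:**
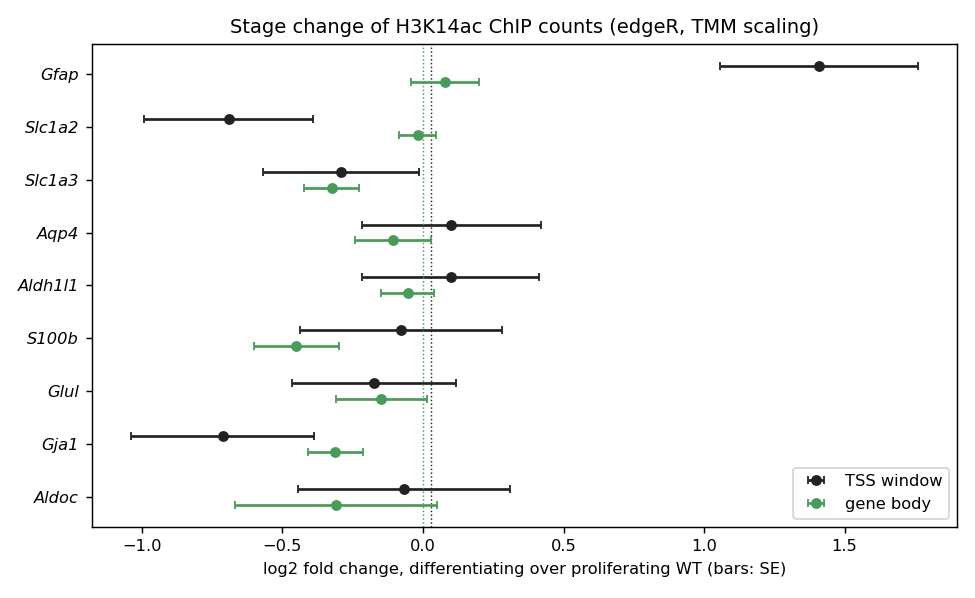
Log2 fold change of WT ChIP counts, differentiating over proliferating, with its SE from the edgeR fit (TMM scaling, 3 libraries per stage), in the TSS window (black) and over the gene body (green) for each member. The dotted lines are the medians of all windows and all gene bodies tested. Gfap stands at 1.41 in the TSS window and 0.08 over the gene body, and the other windows lie between −0.71 and 0.10.

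In order of mean TSS level in differentiating cells, Slc1a3 (2.20 ± 0.338 CPM) and Gfap (2.09 ± 0.118) came first, and Gja1 (1.08 ± 0.287), Aldoc (1.12 ± 0.417) and S100b (1.13 ± 0.185) last, with Glul, Aldh1l1, Aqp4 and Slc1a2 between 1.33 and 1.86 (SD, n = 3 each). In proliferating cells Slc1a3 (3.81 ± 0.174), Glul (3.17 ± 1.43) and Slc1a2 (3.02 ± 0.509) came first and Gfap (1.03 ± 0.369) last. Both orders are of ChIP counts with background included, and the input level differed between genes. Neighbours in either order differed by less than the larger of their SDs, except that Gfap in proliferating cells lay below S100b (1.68 ± 0.331) by more than that. Summed over the 9 members, the TSS windows held 16.4, 12.3 and 13.6 CPM in differentiating and 21.4, 18.8 and 22.2 CPM in proliferating cells. The same sum was 11.2 CPM in differentiating and 12.6 CPM in proliferating input, and 6.85 CPM in differentiating and 10.7 CPM in proliferating IgG. The median member changed by −0.08 between the stages, against 0.03 for all windows, and lay 0.37 above input, against 0.25 for all windows.

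Rules of direction against input gave member counts near those of all windows. All 3 differentiating libraries lay above their input for 4 of 9 members (Gfap, Slc1a3, Aldh1l1 and Glul), where 33% of all windows did. All 3 proliferating libraries did so for 6 of 9 (Slc1a2, Slc1a3, Aqp4, S100b, Glul and Gja1), where 49.5% of all windows did. All 3 lay below for S100b and Gja1 in differentiating cells, 2 of 9 beside a background of 23.6%, and for no member in proliferating cells, beside 11.9%.

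Over whole gene bodies the members were close to level. Per 1 kb of gene the mean body level was 0.956 to 1.21 CPM in differentiating and 1.06 to 1.41 CPM in proliferating cells, a narrow range for genes of 2563 to 132102 deposited bases. None of 9 gene bodies passed between the stages (edgeR with TMM), where 0.163% of the 24564 tested did (0.0366% higher and 0.126% lower). Unadjusted, 3 members had a p under 0.05, as did 2756 of all gene bodies tested. Slc1a3 held 83.4, 85.3 and 85.1 CPM in differentiating and 93.8, 114 and 116 CPM in proliferating cells, beside 83.1 CPM in differentiating and 93.6 CPM in proliferating input. S100b held 7.97, 6.26 and 7.79 CPM in differentiating and 9.69, 11.3 and 9.99 CPM in proliferating cells, and Gja1 14.1, 13.5 and 14.1 CPM in differentiating and 17.8, 16.0 and 18.5 CPM in proliferating cells. The stages did not overlap for these 3 genes, a pattern that 10.8% of all gene bodies showed in that direction and 6.55% in the other. Log2 fold changes were −0.33 for Slc1a3 (SE 0.10, adjusted p = 0.267), −0.45 for S100b (SE 0.15, adjusted p = 0.321) and −0.31 for Gja1 (SE 0.10, adjusted p = 0.275). Without proliferating replicate 1 Slc1a3 passed (−0.44, adjusted p = 0.0249).

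Against input no member's gene body passed, with log2 ratios of −0.29 to 0.18, where 29.8% of the 24848 gene bodies tested were called, 8.43% higher and 21.3% lower. The smallest adjusted p was that of Aldh1l1, at a log2 ratio of −0.21 (SE 0.09, edgeR adjusted p = 0.0993), which became 0.0446 without differentiating replicate 1. Gja1 had 0.18 (SE 0.11, adjusted p = 0.227), and with DESeq2 size factors it passed at 0.33 (adjusted p = 0.0481).

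Against IgG none of the 8 members deep enough to be tested at the TSS passed (edgeR), where 5.34% of all 13158 windows did, 5.13% higher and 0.205% lower. All 8 log2 ratios were above 0 with gene body totals as library sizes, as were 81.9% of all windows. The member median was 1.01 against 0.67 for all windows, but Slc1a3, Aldh1l1 and S100b turned to −0.13, −0.43 and −0.02 with TMM. Unadjusted, 3 members had a p under 0.05, as did 3256 of all windows. Gja1 had 2.20 (SE 0.81, adjusted p = 0.0755), Gfap 2.06 (SE 0.82, adjusted p = 0.101), Slc1a2 1.49 (SE 0.66, adjusted p = 0.139) and Glul 1.07 (SE 0.60, adjusted p = 0.247). The other 4 had adjusted p of 0.338 for Aqp4, 0.587 for S100b, 0.557 for Slc1a3 and 0.861 for Aldh1l1, and Aldoc, with a mean of 9.25 counts, was under the minimum. All 3 differentiating libraries exceeded their IgG for 6 of the 8 (49.6% of all windows). The other 2 were Glul and Slc1a3, both called over input, with mean log2 ratios to IgG of −0.10 ± 0.39 (1 of 3 libraries above) and 0.16 ± 0.22 (2 of 3 above) in differentiating cells (SD, n = 3 each). All 3 proliferating libraries exceeded their IgG for 7 of 8 (60% of all windows), and Aldh1l1 lay below IgG in all 3 proliferating libraries (12% of all windows). Each IgG window of a member held 0 to 7 counts, and no member's gene body passed against IgG (1.28% of all gene bodies, 0.54% higher and 0.739% lower). Gja1 had the smallest edgeR p there, with a log2 ratio of 0.41 (SE 0.16, adjusted p = 0.215).

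In Hbo1 null cells the members could not be measured singly. Their 9 TSS windows held 3 counts in all in the differentiating null library, 1 in Glul and 2 in Aldoc, and none in the proliferating one. The 3 counts are 9.36 CPM (95% exact Poisson interval 1.93 to 27.3), an interval that covers the sums of both the WT ChIP and the input libraries. As a share of the members' gene body counts they are 2.97% (3 of 101, 95% exact binomial interval 0.617 to 8.44), beside 3.84% to 4.70% in differentiating WT libraries and 3.21% in differentiating input. In the proliferating null library the share was 0 of 12 counts, which allows up to 26.5%. For a single member, 3 counts would be 9.36 CPM in the differentiating and 46.8 CPM in the proliferating null library, both above every WT value. A loss of the mark at these genes was thus not detectable at this depth, and these intervals cover counting error only.

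Other genes of astrocytes, some of them also genes of progenitors (such as Nes), were taken from 6 lists of 72 genes in all. The lists were glial transcription factors, receptors and signalling, transporters and channels, metabolism and lipid, matrix and secreted proteins, and filament and Aqp4 anchoring. They too were chosen with earlier results of these data known. Of the 65 windows tested against input 19 were higher (29.2%) and none lower, beside the 11.6% and 0.881% of all windows. Among windows as deep as the members 16.9% were called in either direction. These calls rest on 1 input per stage. Without the proliferating input the median log2 ratio of all windows was 0.11, against 0.25 with both inputs, and the lists were not counted in that fit. Glial transcription factors had 7 of 12 windows higher, with a median log2 ratio of 1.20. They included Nfib (2.51, SE 0.46, edgeR adjusted p = 5.85e-05) and Nfix (2.15, SE 0.44, adjusted p = 0.000346), which promote astrocyte genes in the developing brain, and Lhx2 (1.70, SE 0.40, adjusted p = 0.00170), which in the mouse hippocampus holds progenitors back from making astrocytes. The filament list had 3 of 7 higher: Vim, the filament of radial glia (1.78, SE 0.40, adjusted p = 0.00116), the progenitor filament Nes (1.60, SE 0.41, adjusted p = 0.00433) and the adhesion receptor Cd44 (1.09, SE 0.37, adjusted p = 0.0336). In metabolism 4 of 13 were higher, among them the fatty acid oxidation enzyme Cpt1a (1.38) and the metallothionein Mt2 (1.30). Receptors had 3 of 11, with the FGF receptor Fgfr3 at 1.79 (adjusted p = 0.00137), and matrix genes 1 of 9 (Bcan, 1.70).

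Between the stages none of these 65 windows rose and 4 fell, in the edgeR fit with TMM, beside 2.04% higher and 4.42% lower of all windows. They were Lhx2 (−1.23, SE 0.30, adjusted p = 0.00436), Nes (−1.12, SE 0.28, adjusted p = 0.00525), Nfib (−0.93, SE 0.27, adjusted p = 0.0172) and the receptor Notch1 (−0.86, SE 0.27, adjusted p = 0.0303). Gfap was thus the 1 window called higher among the members and these lists. Over gene bodies, ChIP was higher than input for 14 of the 72 genes (19.4%) and lower for 9 (12.5%), beside 8.43% and 21.3% of all gene bodies. Against IgG 7 of 54 windows were higher (13.0%) and none lower, beside 5.13% and 0.205% of all windows. None of the 72 gene bodies passed between the stages or against IgG, where 0.163% and 1.28% of all gene bodies did. None of the 65 windows passed the interaction test, where 0.0278% of all windows did.

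**Figure D5:**
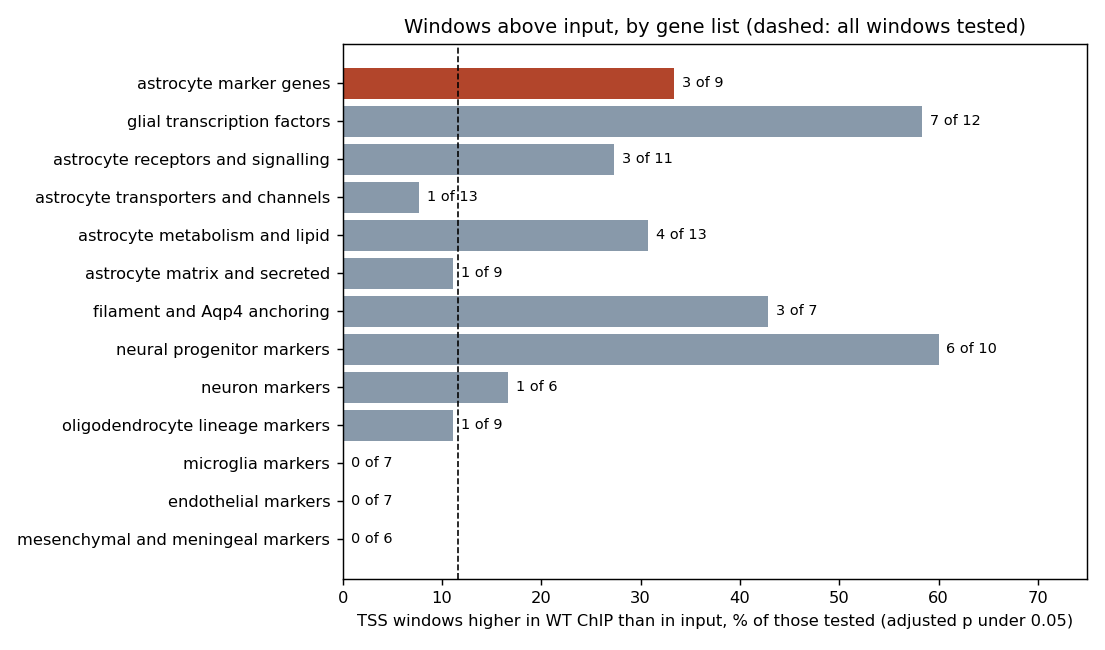
Percentage of windows at the TSS called above input in WT ChIP (edgeR adjusted p under 0.05) of those tested, for the astrocyte marker genes and 12 other gene lists, with the counts beside the bars. The dashed line is the 11.6% of all windows tested; the members stand at 3 of 9, glial transcription factors at 7 of 12 and microglia, endothelial and mesenchymal markers at 0.

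The promoters held 2 CpG in Gfap, Slc1a3 and S100b, 6 in Gja1, 7 in Aldh1l1 and 15 in Glul. Promoter entries that may lie away from the counted start held 1 in Slc1a2 and 5 and 3 in Aldoc. Whether the members differ in this from all promoters was not tested. Across the 18458 genes of the tables with a promoter entry, the TSS signal over input was compared between classes of CpG count in the upstream 250 bases. For 4301 genes with 0 to 2 CpG the fold over input of the summed windows was 0.997 ± 0.026 in differentiating and 1.05 ± 0.052 in proliferating cells (SD, n = 3 each). It was 0.953 ± 0.064 in differentiating and 1.10 ± 0.081 in proliferating cells with 3 to 5 CpG, and 1.01 ± 0.099 in differentiating and 1.32 ± 0.029 in proliferating cells with 6 to 9. With 10 to 14 it was 1.10 ± 0.123 in differentiating and 1.59 ± 0.039 in proliferating cells, and for 6692 genes with 15 or more 1.18 ± 0.150 in differentiating and 1.97 ± 0.136 in proliferating cells. The folds were thus higher from class to class in proliferating cells, while in differentiating cells the 3 lowest classes lay within about their SDs of each other. Set beside these classes, Slc1a3, with 2 CpG, had folds of 1.71 in differentiating and 2.99 in proliferating cells, and Gfap, also with 2, had 1.74 in differentiating and 0.788 in proliferating cells. Glul, with 15, had 1.88 in differentiating and 3.47 in proliferating cells. These are single genes beside sums over many, and no test was made of the difference.

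Motifs were searched on both strands of the 250 bases, by the letters given, with positions counted back from the start. The Gfap promoter held none of the 11 searched. Slc1a3 held a match to the STAT motif TTCNNNGAA at −96, which 7.14% of all promoters hold, a GC box (GGGCGG, 33%) at −145 and 3 matches to CCAAT (34.5%). Glul held a GC box at −33, the E-box CAGCTG (12.7%) at −85 and 2 CCAAT matches that each overlap a match to TTGGC (41.9%) on the other strand. Gja1 held a match to the AP-1 motif TGANTCA (6.85%) at −19. The other letters searched were the full NFI palindrome (0.0407%), ACAAAG (16.5%), ACAAT (28.2%, 1 match in Slc1a3), TGACGTCA (1.6%) and TATAAA (13%, 1 match in Slc1a3). A match is a description of these letters and says nothing of a factor that binds.

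Over the 10 libraries without the null ones, 66 windows had a mean of at least 30 counts. Of those that belong to named genes, the patterns most like the summed members were those of Hjurp (Pearson r 0.928), Spry2 (0.923), Chaserr (0.897), Tnrc18 (0.874) and Rbm39 (0.873). For Slc1a3, the member with most TSS counts, they were Rbm39 (0.870), Tnrc18 (0.850) and Jun (0.846). These correlations of log2 CPM are across libraries that share depth and kind (ChIP, input or IgG) for every gene.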

How the data were processed

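H3K14ac ChIP, input and IgG libraries of mouse neural stem and progenitor cells were analysed from 2 deposited tables of raw counts, which the authors made with bcl2fastq and featureCounts on mm10, per the submitters' processing notes. The aligner, the versions and the treatment of reads that map to several places are not given in the sources used here. Each table holds 27095 gene IDs by 12 libraries, and the 24 deposited files per sample were equal to their columns. The window was read as the first 1000 bases of a gene, because for all 3565 genes of at most 1000 bases the TSS and gene body counts were equal. Since the window is part of the gene body, the tables overlap. Groups were taken from titles and labels.

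For the tests on counts, edgeR 4.0.16 was run in R 4.3.3 with its quasi-likelihood functions (two-sided, prior count 0.125, features with a mean of at least 10 counts over the libraries fitted), with Benjamini-Hochberg adjustment over all windows or gene bodies tested and a threshold of 0.05. SE is the log2 fold change divided by the square root of the F statistic. Differentiating and proliferating cells were compared over the 6 WT libraries, scaled by TMM. Input and IgG were each compared with the same 6 WT libraries in a model with stage, in which library sizes were the gene body totals and TMM was not applied, as TMM assumes that most windows do not differ. The interaction test compared ChIP over input between the stages, with 1 input each assumed to vary like the WT libraries. Ratios per library had 0.5 added to each count. Alternatives were other scalings, DESeq2 1.42.0, other filters, a replicate block and leaving out each library. Settings were tested on simulated data. The replicates differed by more than sampling noise.

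All 9 members are named throughout, with up to 3 called genes of each other list by smallest adjusted p. A gene that this rule selects is not reported here. The members and lists were chosen with earlier results of these data known. Sequences and coordinates are from RefSeq for GRCm38 (mm10), in which 25204 of the gene IDs were matched and 8 of the 9 members have a promoter entry.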

Additional observations from a re-analysis of the deposited data

Results flagged for a closer look

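The gene body of S100b moved to opposite sides of input at the 2 stages. Each of the 3 differentiating WT libraries lay below its input, at log2 ratios of −0.20, −0.54 and −0.23 (mean −0.3242), and each of the 3 proliferating ones lay above, at 0.14, 0.36 and 0.18 (mean 0.2256). Each mean rests on 1 input library, and this difference between the stages was not tested. Input ran the other way from ChIP, at 9.14 CPM in differentiating and 8.84 CPM in proliferating cells. In the fit over both stages the log2 ratio to input was −0.07 (SE 0.15, edgeR adjusted p = 0.749). How many of all gene bodies change side in this way was not counted.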

How the results depend on the processing

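At the TSS between the stages, the number of windows called over all genes was 5060 with gene body totals, 588 with DESeq2, 44 with a mean of at least 30 counts and 761 with the replicate block, against 1257, and the number of members called was 3 with gene body totals and 0 with DESeq2, against 1. Correlations of deviations between libraries of the same replicate number were 0.169, 0.0316 and 0.114 at the TSS, where unlike numbers gave −0.192 to 0.0820. Over gene bodies they were −0.0877, 0.247 and −0.229, where unlike numbers gave −0.350 to 0.273. These values do not settle whether replicate numbers pair the libraries. The block kept Gfap called and called 38 gene bodies, against 40. DESeq2 called 182 gene bodies between the stages. For single members between the stages, Aqp4 and Aldh1l1 turned to −0.39 and −0.39 with gene body totals and to −0.0015 and −0.0033 without a filter. Against input, Aldh1l1 turned to −0.078 with TMM and −0.065 with DESeq2 size factors at the TSS, and DESeq2 size factors called 1 member's gene body, against 0. Against IgG, the windows called were 53 with TMM, 54 with DESeq2 size factors and 371 with DESeq2, against 702, and gene bodies 491 with DESeq2, against 303. Slc1a3, Aldh1l1 and S100b turned to −0.13, −0.43 and −0.015 with TMM and to −0.16, −0.47 and −0.050 with DESeq2 size factors. In the interaction test TMM and no filter each gave 0 windows, against 6, and IgG as control turned Gfap to −4.65, Slc1a2 to 0.49 and Gja1 to 4.48. The members' share of gene body counts at the TSS was 9.76% in differentiating and 10.8% in proliferating cells as a median over members, against 4.22% and 5.56% as a sum, and their summed log2 ratio was 1.00 in differentiating and 0.94 in proliferating cells over IgG, against 0.32 and 0.73 over input. The cause was not tested in these cases.

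Leaving out 1 library at a time gave 319 to 1246 windows and 3 to 66 gene bodies called between the stages, with 0 to 1 members among the gene bodies. Against input it gave 25 to 3990 windows with 0 to 3 members and 0 to 10231 gene bodies with 0 to 1 members, both lowest without the proliferating input. Against IgG it gave 5 to 1035 windows and 74 to 701 gene bodies, both lowest without the proliferating IgG, and in the interaction test 0 to 65 windows. Members with values near 0 changed sign: between the stages Aqp4 ran over −0.16 to 0.53, Aldoc −0.39 to 0.42, Aldh1l1 −0.18 to 0.37, Glul −0.41 to 0.10 and S100b −0.25 to 0.076, against input Gfap −0.28 to 0.82, Aldh1l1 −0.084 to 0.56, S100b −0.38 to 0.45 and Gja1 −0.85 to 0.90, and against IgG Aldh1l1 −0.37 to 1.16. Of the alternatives for single members 347 kept direction and side of the threshold, 36 changed sign, 9 lost a call and 6 gained one. Member windows of 3 to 40 counts in WT ChIP and 0 to 7 in IgG limit what a single gene can show.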

Other observations

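Genes of other cell types were looked at in the same tests as the astrocyte markers, and these lists too were chosen with earlier results known. Neural progenitor markers had 6 of 10 TSS windows higher in ChIP than in input, where 11.6% of all windows were, led by Msi1 (log2 1.77, SE 0.41, edgeR adjusted p = 0.00164), Sox1 (1.69, SE 0.40, adjusted p = 0.00183) and the stem cell factor Sox2 (1.62, SE 0.42, adjusted p = 0.00367). Neuron markers had 1 of 6, Map2 (1.62, SE 0.40, adjusted p = 0.00288), and oligodendrocyte lineage markers 1 of 9, Olig2 (1.48, SE 0.41, adjusted p = 0.00734). Microglia and endothelial markers had 0 of 7 each and mesenchymal and meningeal markers 0 of 6. All these comparisons with input rest on 1 input per stage, and the lists were not counted without the proliferating input. Between the stages the synaptic vesicle gene Syt1 rose in differentiating cells (2.09, SE 0.51, adjusted p = 0.00499), as the 1 called of 6 neuron windows tested of 12 listed. Its window held a mean of 10.7 counts, just over the minimum of 10, so it may have been tested only because differentiating libraries held more. The progenitor factor Emx2 fell (−0.95, SE 0.28, adjusted p = 0.0222), as the 1 called of 10 progenitor windows. Of all windows 2.04% were higher and 4.42% lower. No window of the oligodendrocyte, microglia, endothelial and mesenchymal lists passed between the stages.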
